A study of Mus musculus with 13 samples.

Results

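The 41 genes described here make and finish the cornified layer, the sheet of dead, cross-linked cells that seals the surface of the skin. They were taken by name from the 27998 genes of the deposited matrices. All symbols that start with Lce followed by a digit were taken, which gave 21 late cornified envelope genes (14 Lce1, 6 Lce3 and 1 Lce6). The other 20 were Crct1, Kprp, Tgm1, Tgm3, Tgm5, Casp14, Asprv1, Cdsn, Klk5, Klk6, Klk7, Klk8, Klk14, Spink5, Padi1, Padi3, Padi4, Cst6, St14 and Prss8.

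Keratinocytes are born in the basal layer, pass through the spinous and granular layers and then cornify. In the granular layer transglutaminases (Tgm1, Tgm3, Tgm5) cross-link envelope proteins beneath the plasma membrane, and the small Lce proteins are added late. Casp14 and Asprv1 are proteases that act on the processing of filaggrin, and Padi enzymes turn arginine of structural proteins into citrulline. Corneodesmosin (Cdsn) holds cornified cells together, the kallikreins (Klk) cut such contacts when cells are shed, Spink5 inhibits kallikreins and Cst6 inhibits cysteine proteases. St14 and Prss8 are membrane-anchored serine proteases of the surface of epithelial cells. GRHL3 is a Grainyhead-like transcription factor known for its role in formation of the epidermal barrier.

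The data are 13 droplet libraries (10x Genomics, 3′ ends) of C57BL/6 mouse back skin, in which each captured transcript is counted once by its unique molecular identifier (UMI). At E14.5, at E16.5 and at P0 there were 2 WT and 2 Grhl3-/- libraries of littermates, called 1 and 2 here, from whole skin at the embryonic ages and from separated epidermis at P0, which the methods give as late embryonic or newborn. The Grhl3-/- mice lacked the gene in all cells and had spina bifida, and skin was taken anterior to the defect. A further P0 WT epidermis library, named v1 chemistry in its title and v2 in its protocol and called the first P0 library, stands alone and entered no test. The methods name a male and a female of each genotype at each age. By Xist and the Y-linked gene Ddx3y, the libraries of P0 were all male, both E16.5 WT libraries were female and the E16.5 Grhl3-/- libraries were 1 male and 1 female, and the E14.5 libraries were 1 male and 1 female of WT and 2 males of Grhl3-/-. Sex thus differed between the genotypes at E14.5 and E16.5, and its part in the results was not tested. In WT it cannot be told apart from age between E16.5 and P0. With 2 libraries a group the p-values below measure only spread between libraries. Except for granular cells at P0, that spread was estimated over all 6 groups together, so it also draws on the other ages.

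The libraries held 5068 to 9978 barcodes and 49245953 to 107038146 UMIs, and 5058 to 9157 cells passed the limits of the methods, with medians of 7448 to 9976 UMIs. Any 2 libraries of those tested shared 0.829% to 1.76% of the barcodes of the smaller one. Cells were clustered without the 41 genes and called keratinocyte-like where basal, suprabasal or granular markers led, which gave 348 to 1843 such cells a library. The granular-like cluster was led by Lor and Hrnr at E16.5 and by Flg and Lor at P0, where its suprabasal score was higher than its granular score. It held 75 and 54 cells of the E16.5 WT libraries and 6 and 4 of the Grhl3-/- ones, and there was none at E14.5. At P0 it held 349 and 389 cells of WT, 75 and 144 of Grhl3-/- and 168 of the first library. Levels are given as CPM, counts scaled to a total of 1000000 UMIs over the cells named. In a sum over keratinocyte-like cells, fewer granular-like cells and less RNA per cell cannot be told apart. A P0 cluster led by Krt6a (431 cells) stayed unnamed and outside these sums.

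Grhl3 itself was read at 47.6 and 60.0 CPM in E14.5 WT keratinocyte-like cells and at 36.5 and 35.7 CPM in Grhl3-/- cells. At E16.5 it was 18.7 and 20.4 CPM in WT and 12.6 and 7.95 CPM in Grhl3-/-, and at P0 it was 16.2 and 17.5 CPM against 2.30 and 7.69 CPM. The Grhl3-/- libraries were the lower ones at each age, but the transcript was not absent from any of them. Counts of 3′ ends do not check a deletion that leaves the end of the transcript. At P0 the log2 fold change was −2.08 ± 0.37 (SE derived from the test statistic, adjusted p = 0.00102, edgeR quasi-likelihood test). The embryonic differences did not pass the threshold (adjusted p = 0.647 at E14.5 and 0.29 at E16.5).

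The Lce genes lie side by side with Crct1 and Kprp on mouse chromosome 3, where the 23 genes span positions 92620081 to 93019060 of GRCm38. The 5 kallikrein genes span positions 43690418 to 43851181 of chromosome 7, and the 3 Padi genes 140745865 to 140845778 of chromosome 4. RefSeq promoter windows (GRCm38.p6, 250 bases before to 50 after the start) were at hand for 34 of the 41 genes. The 7 without a window, which were not searched, were Lce1f, Crct1, Spink5, Cst6, St14, Kprp and Prss8. The 250 bases before the start are shown for the 4 genes Lce1m, Lce1a1, Lce1a2 and Lce1d, which were among the 5 most abundant Lce1 transcripts (Lce1b, the remaining one, lacks the letters TAAAAGG and is not shown), and for Lce3f, the most abundant Lce3 transcript of the first E16.5 WT library. Each is written 5′ to 3′ on the strand of the gene, with capitals for CTGTCTCAC and TAAAAGG, letters chosen after these windows had been viewed.
Lce1m (chr3:93019062-93019311, minus strand): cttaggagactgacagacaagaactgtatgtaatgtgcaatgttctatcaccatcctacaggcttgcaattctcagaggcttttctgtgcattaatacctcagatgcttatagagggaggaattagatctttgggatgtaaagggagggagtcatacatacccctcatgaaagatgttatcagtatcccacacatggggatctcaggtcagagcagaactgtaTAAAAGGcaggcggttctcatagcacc
Lce1a1 (chr3:92648308-92648557, minus strand): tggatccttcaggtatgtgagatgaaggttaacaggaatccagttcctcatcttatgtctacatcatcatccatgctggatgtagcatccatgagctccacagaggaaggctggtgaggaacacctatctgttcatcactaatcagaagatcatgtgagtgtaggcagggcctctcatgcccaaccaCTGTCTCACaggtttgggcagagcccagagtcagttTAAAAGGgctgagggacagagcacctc
Lce1a2 (chr3:92670316-92670565, minus strand): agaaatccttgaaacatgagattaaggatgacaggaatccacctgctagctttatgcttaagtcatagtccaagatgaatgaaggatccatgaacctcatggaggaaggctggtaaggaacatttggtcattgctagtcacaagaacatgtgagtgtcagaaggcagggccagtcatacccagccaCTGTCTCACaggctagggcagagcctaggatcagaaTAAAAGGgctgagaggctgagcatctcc
Lce1d (chr3:92687211-92687460, minus strand): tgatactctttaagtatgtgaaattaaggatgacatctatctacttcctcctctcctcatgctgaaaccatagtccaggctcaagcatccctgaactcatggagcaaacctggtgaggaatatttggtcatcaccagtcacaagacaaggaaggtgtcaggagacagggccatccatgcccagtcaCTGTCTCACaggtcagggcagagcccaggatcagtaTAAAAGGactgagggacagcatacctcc
Lce3f (chr3:92991967-92992216, plus strand): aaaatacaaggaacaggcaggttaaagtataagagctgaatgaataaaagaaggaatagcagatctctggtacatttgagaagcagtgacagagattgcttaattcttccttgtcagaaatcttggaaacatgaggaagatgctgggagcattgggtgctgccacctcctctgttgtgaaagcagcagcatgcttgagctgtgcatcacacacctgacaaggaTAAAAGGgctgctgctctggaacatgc
The letters CTGTCTCAC, read on both strands, stood in 9 of 13 Lce1 windows, in none of 6 Lce3 windows and in none of the 15 other windows of the set, against 0.466% of all 32851 windows. Since CTGTCTCAC and TAAAAGG were picked from windows of the set, their shares over all windows are given for scale and test nothing. In 8 of the 9 they began 63 or 64 bases before the start, and in Lce1j 52 bases before it. Lce1m, the most abundant Lce gene at E16.5, has no such match. The letters TAAAAGG stood in 11 Lce1 windows, 3 Lce3 windows and 2 others (Padi1 and Klk8), against 4.73% of all windows, at 25 to 29 bases before the start in each. The letters TATAAA were in 2 Lce1 windows, 1 Lce3 window and 3 others against 13.6% of all, and share bases with TAAAAGG in Lce1m and Lce1d. Among the 34 genes with a window, AACCNGTT, letters bound by Grainyhead-like factors, was found in Tgm5 alone, against 2.09% of all windows. TGANTCA, the AP-1 letters, was found in Padi4 alone, against 7.81%. Spink5 and Cst6 were among the genes that could not be searched. These are matches of letters in a short window and do not show binding.

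**Figure D1:**
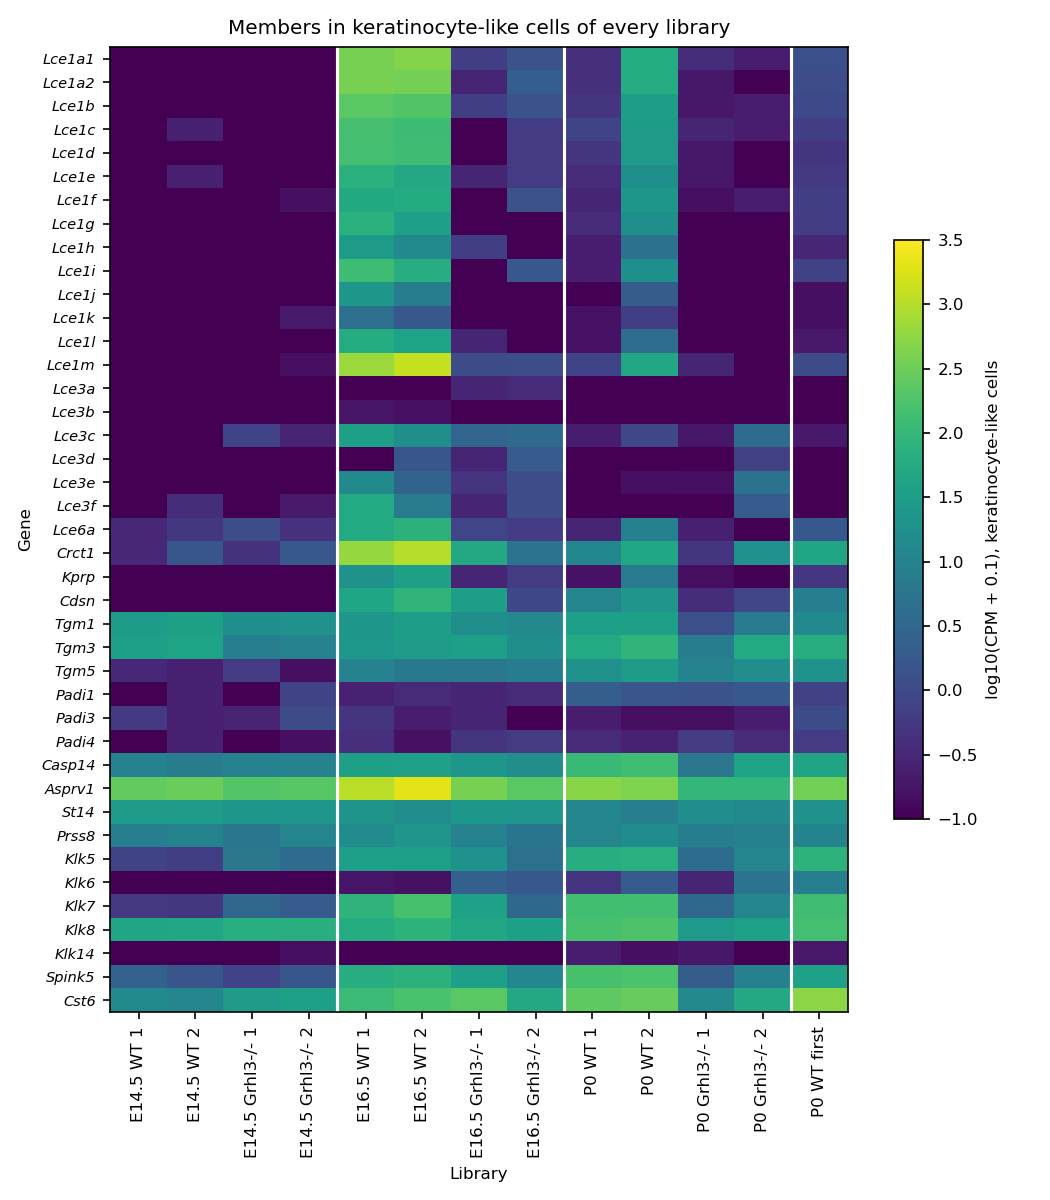
Level of each of the 41 genes (rows, by role) in keratinocyte-like cells of each of the 13 libraries (columns), as log10 of CPM plus 0.1 in colour. The Lce1, Lce6a, Kprp and Crct1 rows are brightest in the 2 E16.5 WT libraries, and the Klk8, Spink5 and Casp14 rows in P0 WT 1 and 2.

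In WT, most of the tested members rose between E14.5 and E16.5. Of the 41 genes, 36 passed the filter on low counts in keratinocyte-like cells (Klk14, Lce3a, Lce3b, Padi3 and Padi4 did not), a filter that a gene can pass through the group in which it is high. Between E14.5 and E16.5, 30 of the 36 rose and none fell, where 10.6% of 13171 genes rose and 8.27% fell. The Lce genes could pass the filter through E16.5 WT, where they are high (32318 and 48944 UMIs, against 1 and 7 in E14.5 WT). For their rise the share and the median over all genes are thus no fair measure. By kind, the genes that rose were 14 of 14 Lce1, 3 of 4 Lce3, Lce6a and 12 of the 17 tested genes that are not Lce. The median log2 fold change of the 36 was 8.78, or 6.38 with genes at 0 in one group set to their bound, against 0.01 over all genes. Markers of layers and of other cells moved too: granular markers (10 genes) summed to 80.5 and 123 CPM at E14.5 and 4434 and 7066 CPM at E16.5, suprabasal ones (10) to 10379 and 9522 and then 30385 and 41556 CPM, basal ones (9) to 5040 and 4675 and then 18080 and 18306 CPM and fibroblast ones (7) to 1283 and 1054 and then 3384 and 2359 CPM. Their part in the result was not tested.

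The Lce family as a whole was at 1 and 7 UMIs in all keratinocyte-like cells of the E14.5 WT libraries and at 32318 and 48944 UMIs in those of E16.5. Lce1m was at 0 UMIs in both E14.5 WT libraries and at 662 and 1265 CPM at E16.5, at least 3722-fold higher when 3 counts are allowed for the E14.5 group. Lce1a1 went from 0 to 379 and 470 CPM, at least 1595-fold higher, and Lce1a2 from 0 to 382 and 367 CPM. Near-identical ends limit such values: of the 75-base windows in the last 500 bases of Lce3c to Lce3f, 32.4% to 40.4% also occur in another gene, and 0 to 20.2% for Lce1, so reads of single family members may have been split or lost.

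Cdsn, the corneodesmosome protein, was at 0 UMIs in the 4 libraries of E14.5 and at 46.1 and 86.4 CPM at E16.5, at least 256-fold higher. Crct1, a small cysteine-rich protein encoded among the Lce genes, was at 0.231 and 1.47 CPM and then at 601 and 985 CPM. Kprp, a proline-rich keratinocyte protein, went from 0 to 20.4 and 36.5 CPM. Asprv1 was already at 264 and 291 CPM at E14.5 and reached 1079 and 2064 CPM (log2 fold change 2.63 ± 0.30, adjusted p = 0.000188). Spink5 went from 2.54 and 1.47 to 62.5 and 76.8 CPM (5.31 ± 0.66, adjusted p = 0.000323), and Klk7 from 0.463 and 0.442 to 83.1 and 157 CPM (8.16 ± 1.14, adjusted p = 0.000657). Klk8 was at 44.9 and 49.1 CPM at E14.5 and at 61.5 and 80.3 CPM at E16.5, a rise of 0.72 ± 0.19 on the log2 scale (adjusted p = 0.0245), which lost the call in 7 of 22 alternatives, among them those without E14.5 WT 1, without E14.5 WT 2 and without E16.5 WT 2 (adjusted p up to 0.194).

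The 6 tested genes that did not pass the threshold between these ages were Tgm1, Tgm3, St14, Klk6, Padi1 and Lce3d. Tgm1, the membrane-bound transglutaminase, was at 29.4 and 35.7 CPM at E14.5 and 23.6 and 33.1 CPM at E16.5 (log2 fold change −0.07 ± 0.41). Tgm3 was at 34.5 and 40.4 CPM and then at 25.2 and 30.5 CPM, and St14 at 28.7 and 29.5 CPM and then at 21.5 and 16.4 CPM. Transcripts of these 3 enzymes were thus already counted at E14.5, when Lce transcripts were at or near 0. Without E14.5 WT 1 and without E14.5 WT 2, 19 and 12 of the set were called, with the lone library taken to vary like the others.

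From E16.5 to P0 the set split. In keratinocyte-like cells 21 of the 36 fell and 7 rose, where 29.0% of all tested genes fell and 30% rose. Lce genes could pass the filter through E16.5 WT, where they are high (32318 and 48944 UMIs, against 66 and 6571 in P0 WT). For their fall the share over all genes is thus no fair measure. The falling ones were 12 Lce1 genes, Lce3c, Lce3e, Lce3f, Lce6a, Crct1, Kprp, Asprv1, Cdsn and St14, and the rising ones were Casp14, Klk5, Klk8, Spink5, Tgm3, Tgm5 and Padi1. The tissue also differed, whole skin at E16.5 and epidermis after overnight Dispase at P0, as did sex, and these cannot be told apart from age. Without E16.5 WT 1, 17 were called, without E16.5 WT 2 3 rose and 17 fell, and with DESeq2 14 were called. Of 22 alternatives, Klk5 was called in 6, Tgm3 in 9, Spink5 in 14 and the fall of Cdsn in 7, and these 4 and Casp14 lost the call without either E16.5 WT library. Klk8, Tgm5, Padi1, Lce1m, Lce3c, Lce3e, Lce3f, Lce6a and Crct1 kept it under every alternative.

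The P0 WT libraries differed from each other in the Lce genes. Lce1m was at 662 and 1265 CPM in the E16.5 WT libraries, and at 0.711 and 50.5 CPM in the P0 ones, with 0.993 CPM in the first P0 library (log2 fold change −5.07 ± 1.06, adjusted p = 0.00196). Crct1 was at 12.7 and 47.9 CPM at P0 and 46.8 CPM in the first library, all below the E16.5 values (−4.57 ± 1.07, adjusted p = 0.00329). Lce3f was at 55.5 and 7.09 CPM at E16.5 and at 0 UMIs in both P0 WT libraries. Against the pooled E16.5 level of 27.9 CPM, to which WT 1 gave most counts, this is at least 315-fold lower. In contrast, Klk8 rose from 61.5 and 80.3 to 155 and 172 CPM (1.33 ± 0.19, adjusted p = 9.76e-05), and Spink5 from 62.5 and 76.8 to 156 and 165 CPM (1.33 ± 0.42, adjusted p = 0.0173). Casp14 rose from 36.5 and 38.1 to 113 and 131 CPM (1.84 ± 0.53, adjusted p = 0.0104), and Tgm5 from 9.78 and 6.44 to 18.2 and 31.1 CPM (1.76 ± 0.32, adjusted p = 0.000665). Klk7 was at 83.1 and 157 CPM and then at 137 and 136 CPM (0.30 ± 0.57, adjusted p = 0.67). The make-up of the summed cells moved with age. Granular-like cells were 6.20% and 3.70% of them at E16.5 and 31.8% and 34.8% at P0, with 10.99% in the first P0 library. Fibroblast markers (7 genes) summed to 3384 and 2359 CPM and then to 374 and 307 CPM. Within granular-like cells the order of some members was the other one, Klk8 being at 423 and 720 CPM at E16.5 and at 377 and 343 CPM at P0, and Spink5 at 745 and 1248 CPM and then at 451 and 402 CPM. Casp14 was at 123 and 148 CPM and then at 294 and 276 CPM in these cells. These levels were not tested, nor was the part of the make-up.

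In most libraries of E16.5 WT and P0, Lce transcripts sat in a small number of barcodes. A barcode is called Lce-rich here when at least 0.5% of its UMIs and at least 5 UMIs come from Lce genes, limits chosen after the data had been seen. Over the 13 libraries there were 68 such barcodes, of which 45 passed the limits on cells and 23 did not (9 lay under the gene limit and 15 over the mitochondrial limit). The E16.5 WT libraries held 16 and 39 of them, and 12 and 25 passed the limits. No other library held more than 6, and the E14.5 libraries held none. Lce-rich barcodes held 91.5% and 90.5% of all Lce UMIs of the E16.5 WT libraries and 85.1% of those of P0 WT 2, but 12.1% of the 338 Lce UMIs of P0 WT 1 and 14.2% and 26.6% of the 288 and 218 of E16.5 Grhl3-/-. In P0 Grhl3-/- 1 and 2, 1 barcode each held 55.3% and 57.2% of the 284 and 138 Lce UMIs.

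Within the granular-like cells of E16.5 WT, 12 of 75 (16%, exact 95% interval 8.55 to 26.3%) and 22 of 54 (40.7%, 27.6 to 55.0%) were Lce-rich. Lce-rich cells held 98.4% and 97.1% of all Lce UMIs of keratinocyte-like cells in these libraries. In the first, 2 barcodes held 72.5% of all Lce UMIs, and the richest cell had 14114 Lce UMIs, 50.3% of its 28032. Of the granular-like cells of E16.5 Grhl3-/- 1 and 2, 0 of 6 (by 3 counts of the total, up to 50%) and 1 of 4 (25%, 0.631 to 80.6%) were Lce-rich. Intervals of this kind cover counting error only.

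At P0, 0 of 349 granular-like cells of WT 1 (which, by 3 counts of the total, allows a share of up to 0.860%) and 2 of 389 of WT 2 (0.514%, 0.0623 to 1.84%) were Lce-rich. Of the 6571 Lce UMIs in keratinocyte-like cells of WT 2, 93.1% were in those 2 cells, and 1 of them had 6025. In P0 Grhl3-/- 1 and 2, 0 of 75 granular-like cells (by 3 counts, up to 4%) and 1 of 144 (0.694%, 0.0176 to 3.81%) were Lce-rich. With 0 to 2 Lce-rich cells a library, these counts cannot tell whether the share differed between the genotypes. In the first P0 library 0 of 168 granular-like cells were Lce-rich (up to 1.79%), yet 2 of its barcodes outside the limits held 2576 of its 3016 Lce UMIs. They had 579 and 853 detected genes and were the only barcodes of that library below the limit of 900 genes. The cells within the limits held 437 Lce UMIs. The limit on detected genes thus took away most Lce counts of that library, and 4 and 14 Lce-rich barcodes of the E16.5 WT libraries were likewise outside the limits.

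**Figure D2:**
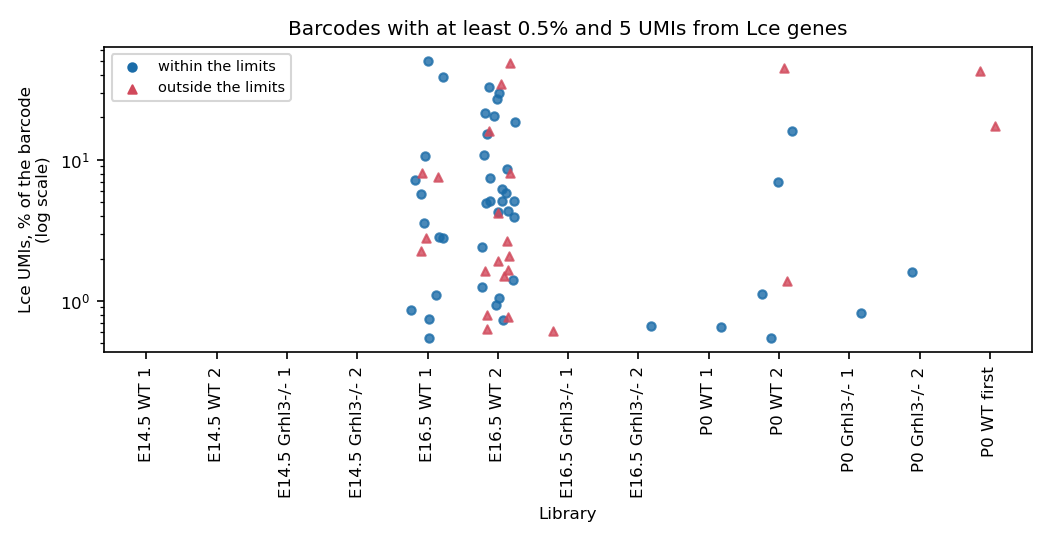
Percent of a barcode's UMIs that come from Lce genes (log scale) for the Lce-rich barcodes of each library, with barcodes within and outside the limits on detected genes and mitochondrial UMIs marked apart. Of the 68 barcodes 55 are from the 2 E16.5 WT libraries, and the 2 of the first P0 library are at 42.5% and 17.4%, both outside the limits.

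The other 20 genes were read in these cells, since they took no part in the choice of Lce-rich cells. In E16.5 WT 1 and 2, Kprp was at 1161 and 1350 CPM in Lce-rich granular-like cells and at 0 and 6.6 CPM in the other granular-like cells. Crct1 was at 30361 and 32528 CPM against 1287 and 4169 CPM, and Prss8 at 248 and 394 CPM against 9.9 and 28.7 CPM. Asprv1 was at 32448 and 50958 CPM against 5020 and 16432 CPM, and Klk7 at 2199 and 3811 CPM against 710 and 1919 CPM. These 5 were higher in Lce-rich cells of both libraries.

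Other enzymes did not follow the Lce genes. Klk5 was at 361 and 433 CPM in Lce-rich cells and at 370 and 713 CPM in the other granular-like cells, and Spink5 at 872 and 1013 CPM against 699 and 1476 CPM. Casp14 was at 140 and 121 CPM against 117 and 174 CPM. St14 was at 13.5 and 6.8 CPM against 38.0 and 19.9 CPM. Tgm3 was at 0 UMIs in the Lce-rich cells of both libraries, at 11.6 and 8.8 CPM in the other granular-like cells and at 104 and 99.9 CPM in spinous-like cells. These are sums over 12 and 22 cells of 2 libraries, given without a test. The values of St14 in Lce-rich cells and of Tgm3 in granular-like cells (7 and 4 UMIs in all) rest on few counts. For Tgm3 the 0 does not set Lce-rich cells below the other granular-like cells. Lce1m in cells that were not keratinocyte-like, which should lack it, was at 11.6 and 29.9 CPM in these libraries.

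**Figure D3:**
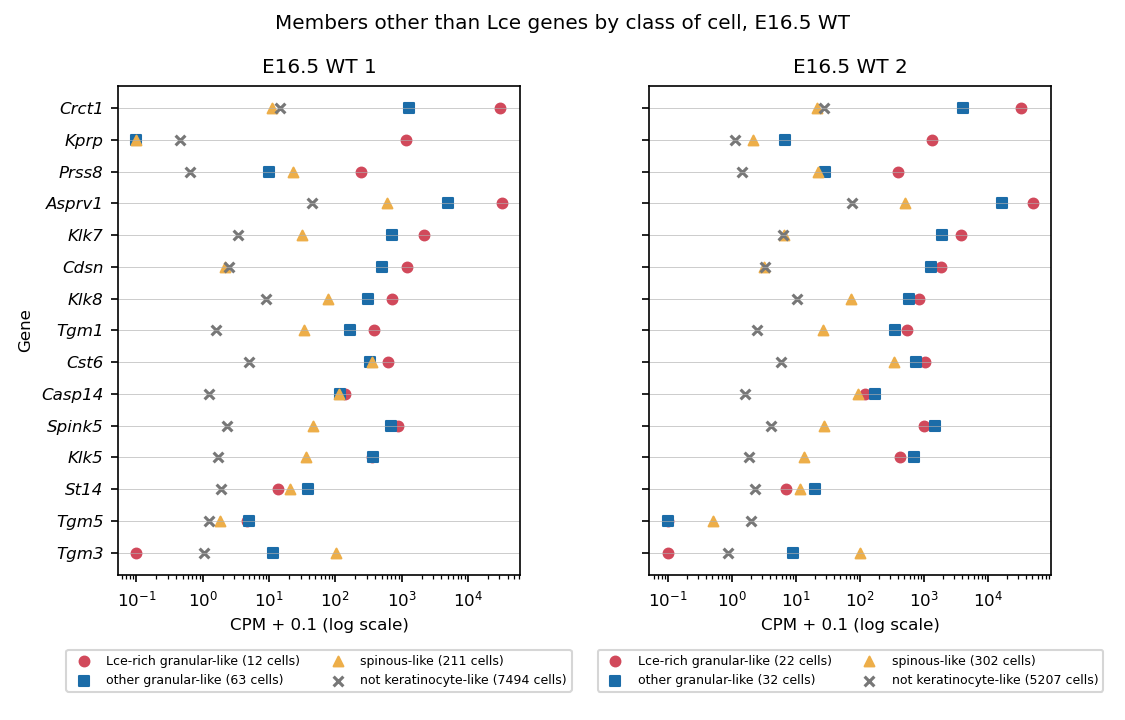
Level (CPM + 0.1, log scale) of members other than Lce genes in 4 sets of cells of E16.5 WT 1 and 2: Lce-rich granular-like (12 and 22 cells), other granular-like (63 and 32), spinous-like (211 and 302) and cells that were not keratinocyte-like (7494 and 5207). Crct1, Kprp, Prss8 and Asprv1 are highest in Lce-rich cells of both libraries, and Tgm3 is highest in spinous-like cells.

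Most of the tested genes were called lower in Grhl3-/- at P0. The Lce calls among them rest on WT 2, where 1 cell held 6025 of the 6571 Lce UMIs of keratinocyte-like cells, as given below. Of the 36 genes tested in keratinocyte-like cells, 24 were lower in Grhl3-/- and none was higher, where 42.1% of all tested genes were called and 21.0% were called lower. The 24 were 12 Lce1 genes, Lce6a, Kprp, Cdsn, Tgm1, Tgm5, Casp14, Asprv1, Klk5, Klk7, Klk8, Spink5 and Cst6. By kind, 13 of 19 tested Lce genes and 11 of 17 others were lower. The median log2 fold change of the 36 was −4.85 (−3.51 with bounds), against 0.0 over all genes. Without WT 2 it was −1.97, over all cells of the libraries −2.83 (38 genes) and with the 4 P0 libraries alone −2.50 (19 genes).

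Both inhibitors fell. Spink5, the kallikrein inhibitor, was at 156 and 165 CPM in WT and at 2.01 and 9.21 CPM in Grhl3-/- (−5.22 ± 0.54, adjusted p = 3.12e-05). Cst6, an inhibitor of cysteine proteases, was at 239 and 281 CPM in WT and at 12.8 and 52.7 CPM in Grhl3-/- (−3.20 ± 0.63, adjusted p = 0.00199). The genotypes did not overlap in either, which is no evidence beyond the calls.

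Of the 5 kallikreins, 3 fell. Klk8 was at 155 and 172 CPM in WT and at 26.2 and 37.8 CPM in Grhl3-/- (−2.51 ± 0.20, adjusted p = 6.58e-06), and Klk7 at 137 and 136 CPM against 3.11 and 11.5 CPM (−4.54 ± 0.72, adjusted p = 0.000489). Klk5, which is known to activate other kallikreins, was at 62.4 and 72.2 CPM against 3.78 and 11 CPM (−3.46 ± 0.49, adjusted p = 0.000247). The membrane proteases were not called: Prss8 was at 11.1 and 15.4 CPM against 7.76 and 9.21 CPM (−0.79 ± 0.31, adjusted p = 0.0605), and St14 at 12.2 and 8.46 CPM against 15.9 and 13.6 CPM (adjusted p = 0.0847). St14 was higher in both Grhl3-/- libraries than in either WT library. Klk6 was at 0.388 and 1.90 CPM in WT and 0.192 and 5.17 CPM in Grhl3-/- and was not called.

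The intracellular proteases also fell. Asprv1 was at 496 and 435 CPM in WT and at 93.6 and 94.2 CPM in Grhl3-/- (−2.43 ± 0.30, adjusted p = 9.51e-05). Casp14 was at 113 and 131 CPM in WT and at 5.94 and 40.2 CPM in Grhl3-/- (−2.66 ± 0.56, adjusted p = 0.00285), so the Grhl3-/- libraries differed from each other by more than the WT ones did.

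Of the transglutaminases, Tgm1 was at 34.8 and 35.5 CPM in WT and 1.15 and 6.94 CPM in Grhl3-/- (−3.56 ± 0.49, adjusted p = 0.00019), and Tgm5 at 18.2 and 31.1 CPM against 10.3 and 15.8 CPM (−1.09 ± 0.31, adjusted p = 0.0156). Tgm3 was at 55.8 and 89.0 CPM in WT and at 7.76 and 56.6 CPM in Grhl3-/- and was not called (−1.40 ± 0.61, adjusted p = 0.0856). Cdsn was at 10.9 and 21.8 CPM in WT and 0.287 and 0.757 CPM in Grhl3-/- (−5.36 ± 1.21, adjusted p = 0.00628). Padi1, the one deiminase tested, was at 2.20 and 1.41 CPM in WT and 1.29 and 1.64 CPM in Grhl3-/- (adjusted p = 0.53).

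The Lce calls at P0 rest on WT 2, and there mostly on 1 cell, which held 6025 of the 6571 Lce UMIs of keratinocyte-like cells. All Lce genes together were at 4.27 and 357 CPM in WT and at 1.39 and 11.5 CPM in Grhl3-/-. The first P0 library, which is WT, was at 9.35 CPM. Lce1m was at 0.711 CPM in WT 1, 50.5 CPM in WT 2, and 0.192 and 0 CPM in Grhl3-/-, and its log2 fold change was −7.58 ± 1.90 (adjusted p = 0.00904). Lce1a1 was at 0.323 and 61.0 CPM in WT and 0.287 and 0.126 CPM in Grhl3-/-, and Lce1a2 at 0.323 and 60.2 CPM against 0.0958 and 0 CPM. Lce1b was at 0.388 and 31.6 CPM against 0.0958 and 0.126 CPM, and Lce1c at 0.711 and 29.1 CPM against 0.192 and 0.126 CPM. The values of WT 1 were thus closer to Grhl3-/- than to WT 2. Lce1d (0.388 and 27.2 CPM against 0.0958 and 0 CPM), Lce1e (0.259 and 17.3 against 0.0958 and 0 CPM) and Lce1f (0.194 and 23.7 against 0.0479 and 0.126 CPM) had the same order. Lce1g (0.259 and 17.5 CPM), Lce1h (0.129 and 4.94 CPM), Lce1i (0.129 and 17.0 CPM) and Lce1l (0.0647 and 3.91 CPM) were at 0 UMIs in both Grhl3-/- libraries. Against the floor of 3 counts over the group they were at least 92.6-fold, 26.3-fold, 89.2-fold and 20.7-fold lower there, and nearly all of the WT counts were those of WT 2.

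Lce6a was at 0.194 and 9.22 CPM in WT and 0.144 and 0 CPM in Grhl3-/-, and Kprp at 0.0647 and 6.89 CPM against 0.0479 and 0 CPM. Without P0 WT 2, 10 of the set were called at P0, and of the genes of the Lce region only Lce1c was among them (−2.06, adjusted p = 0.0482). Without Grhl3-/- 1, 8 were lower and 2 higher (Lce3c, 2.74, and Lce3e, 6.73 on the log2 scale), and no Lce1 gene was called. The Lce1 fold changes stayed large there, at −11.24 for Lce1m, −11.49 for Lce1a2 and −6.96 for Lce1c, with adjusted p of 0.0716, 0.0977 and 0.0792. The 2 Lce3 genes were at 3.78 and 4.79 CPM in Grhl3-/- 2 and below 1 CPM in the other P0 libraries, and 86.8% of the Lce UMIs of keratinocyte-like cells of that library were in 1 cell. Crct1 was at 12.7 and 47.9 CPM in WT and 0.383 and 19.2 CPM in Grhl3-/- (−2.10 ± 1.12, adjusted p = 0.156), and its groups overlapped.

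Of the 24 genes, Asprv1, Klk8, Klk7, Klk5, Casp14, Tgm1, Spink5 and Cst6 were called with each library left out in turn, and Klk8, Klk5 and Casp14 under every alternative tried. Some of the others lost the call with clusters at resolution 0.5 or with the Krt6a-led cluster added. Spink5 lost the call with each, at −1.39 (adjusted p = 0.103) with resolution 0.5. Asprv1 lost it with each and over all cells of the library, with fold changes down in size to −0.83 and adjusted p up to 0.13. At resolution 0.5 Klk7 was at −2.45 (adjusted p = 0.0523) and Tgm1 at −1.10 (0.0545). Over all cells of the library Cst6 was at −1.36 (adjusted p = 0.129) and Tgm5 at −0.32 (0.249). Tgm5 was also lost at the same number of UMIs, without WT 2 (−0.62) and without Grhl3-/- 1 (−0.82), and Cdsn without Grhl3-/- 1 (−4.59, adjusted p = 0.0649).

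Markers of other layers and cell types moved with genotype in the same cells. At P0 the granular markers (10 genes) summed to 3234 and 3647 CPM in WT keratinocyte-like cells and 50.8 and 392 CPM in Grhl3-/-, and granular-like cells were 31.8% and 34.8% of them in WT and 4.07% and 18.6% in Grhl3-/-. Basal markers (9 genes, none at 0) summed to 14285 and 12700 CPM against 27328 and 20044 CPM, suprabasal markers (10 genes, none at 0) to 36952 and 42641 CPM against 10024 and 15373 CPM, and markers of dividing cells (6 genes, none at 0) to 631 and 493 CPM against 1204 and 1273 CPM. Hair follicle markers (10 genes, none at 0) summed to 1004 and 1164 CPM against 2251 and 2923 CPM. Fibroblast markers (7 genes, 1 or 2 at 0) summed to 374 and 307 CPM against 928 and 907 CPM. The paper reports Dcn, of the fibroblast list, as a marker of a basal interfollicular cluster. It reports Lef1, of the hair follicle list, as higher in basal cells of Grhl3-/-. These sums are thus not particular to follicle cells or fibroblasts. In the first P0 library, which is WT, granular-like cells were 10.99% of keratinocyte-like cells, above Grhl3-/- 1 and below Grhl3-/- 2. That library was at 29398 CPM for basal and 3308 CPM for hair follicle markers, above both Grhl3-/- libraries. It was at 39247 CPM for suprabasal and 1395 CPM for granular markers. Their part in the result was not tested, except that the comparison was repeated within later layers, as follows.

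In suprabasal-like cells (spinous-like and granular-like together) at P0, 12 of 35 tested genes were lower in Grhl3-/- and none was higher, where 13.9% of 11273 genes were lower. They were Asprv1, Cdsn, Cst6, Klk5, Klk7, Klk8, Spink5, Tgm1, Tgm5, Lce1a2, Lce1c and Lce1m, and 6 of the 12 (Asprv1, Klk5, Klk7, Klk8, Spink5 and Tgm1) were called with each library left out. The 3 Lce1 genes lost the call without WT 2 and without either Grhl3-/- library, Cdsn without WT 2 or Grhl3-/- 1, Cst6 without WT 1 or Grhl3-/- 1, and Tgm5 in 10 of 21 alternatives. Without WT 2 there were 7, and without WT 1 there were 21. Spink5 was at 297 and 275 CPM in WT and 9.52 and 28.8 CPM in Grhl3-/- (−4.06 ± 0.49, adjusted p = 0.000354). With clusters at resolution 0.5, Spink5 (−1.12, adjusted p = 0.0948), Asprv1 (−0.63, 0.164) and Tgm1 (−0.70, 0.0618) lost this call. Casp14 was at 210 and 212 CPM against 23.7 and 140 CPM and was not called (adjusted p = 0.0683).

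In granular-like cells alone, 3 of 15 tested genes were lower in Grhl3-/- at P0, where 0.455% of 9228 genes were lower and 0.119% higher. Spink5 was at 451 and 402 CPM in WT and 33.1 and 47.4 CPM in Grhl3-/- (−3.32 ± 0.40, adjusted p = 0.029). Klk7 was at 377 and 275 CPM against 25.1 and 49.1 CPM (−3.03 ± 0.48, adjusted p = 0.0483), and Asprv1 at 1233 and 939 CPM against 283 and 168 CPM (−2.26 ± 0.36, adjusted p = 0.0483). In the first P0 library these 3 were at 246, 471 and 1225 CPM. The cells named granular-like were not alike in other markers. Krt14, a basal keratin, was at 224 and 197 CPM in those of WT and 1283 and 1013 CPM in those of Grhl3-/-, and at 1574 CPM in the first P0 library. Lor was at 1184 and 1833 CPM in WT and 25.1 and 441 CPM in Grhl3-/-. Their part in the result was not tested.

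Members just outside the threshold included Klk8, at 377 and 343 CPM in WT and 76.5 and 94.1 CPM in Grhl3-/- (−2.0 ± 0.35, adjusted p = 0.0512), and Klk5, at 179 and 170 CPM against 18.3 and 44.2 CPM (−2.35 ± 0.49, adjusted p = 0.0709). Cdsn was at 31.3 and 53.3 CPM against 0 and 4.91 CPM (−3.81 ± 0.74, adjusted p = 0.0647), and Tgm1 at 87.9 and 80.0 CPM against 10.3 and 36.0 CPM (adjusted p = 0.147). Casp14 was at 294 and 276 CPM against 69.6 and 232 CPM. Tgm3, at 131 and 185 CPM against 95.9 and 313 CPM, and Crct1, at 36.7 and 115 CPM against 1.14 and 119 CPM, had Grhl3-/- values on both sides of the WT ones. Klk6 was at 0.977 and 2.84 CPM in WT and 4.57 and 30.3 CPM in Grhl3-/-, above WT 1 and 2, without passing the threshold (3.31 ± 0.86, adjusted p = 0.0984), and the first P0 library, which is WT, was at 21.6 CPM, above Grhl3-/- 1. Of the 3 called genes, Spink5 was called under every alternative. Asprv1 lost the call without WT 1, and Klk7 and Asprv1 lost it with libraries thinned to the same number of UMIs and with RLE normalization. With a library left out, 17 to 33 members passed the filter. Such a fit sets 1 library against 2 and takes its spread from 1 pair, so its calls are weak evidence. Without WT 1, 16 were lower and 1 higher of 31, without WT 2 6 and 2 of 17, without Grhl3-/- 1 10 and 4 of 33 and without Grhl3-/- 2 11 and 0 of 32. Over all genes 124 of 7852, 154 of 7834, 2359 of 10345 and 847 of 10454 were called in these fits.

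**Figure D4:**
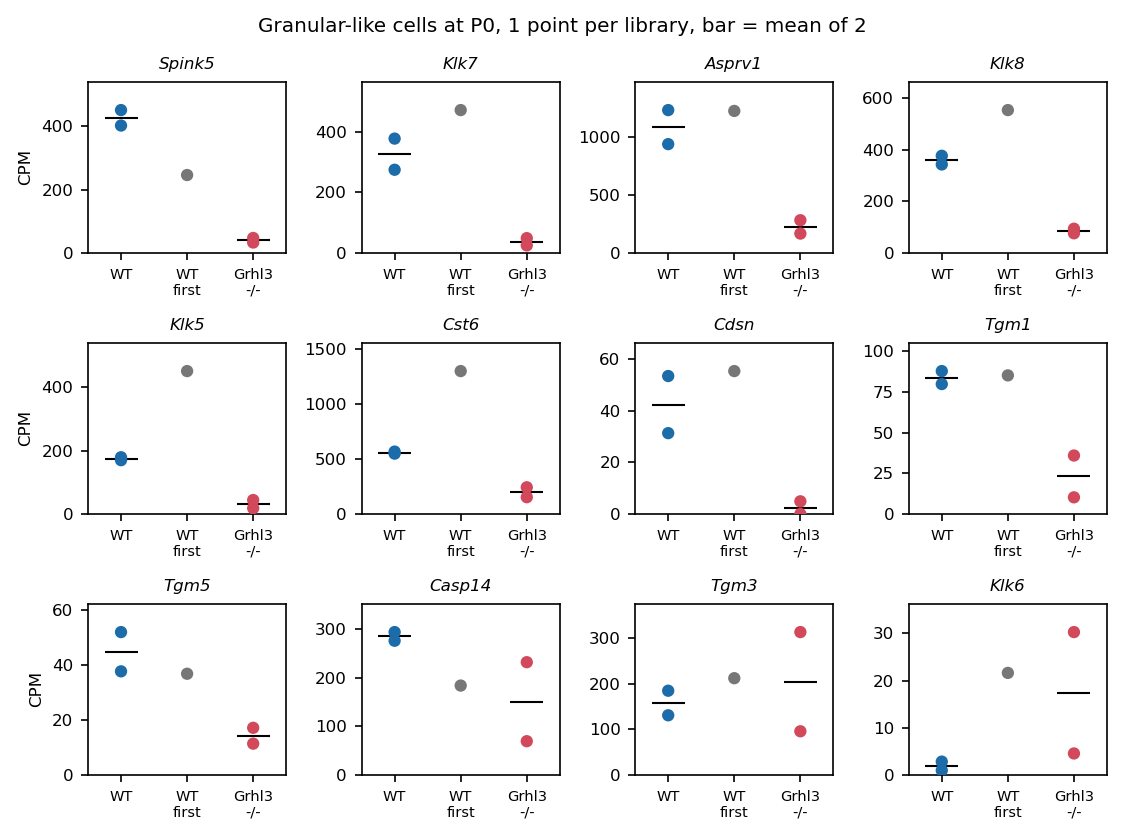
Level (CPM, linear scale) of 12 members in granular-like cells of each P0 library, with 1 point per library and a bar at the mean of WT 1 and 2 and of Grhl3-/- 1 and 2, the first P0 library standing alone. Spink5, Klk7, Asprv1, Klk8 and Klk5 are lower in both Grhl3-/- libraries than in any WT library, and for Tgm3 and Klk6 Grhl3-/- 2 is the highest of all, at 313 and 30.3 CPM.

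At E16.5, Asprv1 and 5 of the 19 tested Lce genes were lower in Grhl3-/- keratinocyte-like cells. In all 6 of the 36 were lower in Grhl3-/- and none was higher, where 0.934% of genes were lower and 0.387% higher (1.32% called in all). They were Asprv1, Lce1m, Lce1l, Lce1c, Lce1b and Lce6a, and 14 Lce genes were not called. Lce genes could pass the filter through E16.5 WT, where they are high (32318 and 48944 UMIs, against 41 and 70 in Grhl3-/-). For them the share over all genes is thus no fair measure. The median log2 fold change of the 36 was −4.19 (−3.38 with bounds), against −0.02 over all genes.

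All Lce genes together were at 2549 and 2917 CPM in E16.5 WT keratinocyte-like cells and at 7.82 and 18.6 CPM in Grhl3-/-, which is 41 and 70 UMIs. In WT 1 and 2 these sums rest on few cells, as 12 and 23 Lce-rich cells held 98.4% and 97.1% of the UMIs. The Grhl3-/- libraries had 413 and 353 keratinocyte-like cells, of which 6 and 4 were granular-like. The part of these cell numbers was not tested. Lce1m was at 662 and 1265 CPM in WT and 0.954 and 1.06 CPM in Grhl3-/- (−9.94 ± 1.60, adjusted p = 0.0163). Lce1l was at 61.1 and 40.1 CPM against 0.191 and 0 CPM (−8.73 ± 1.44, adjusted p = 0.0293), and Lce1c at 149 and 121 CPM against 0 and 0.530 CPM (−9.20 ± 1.71, adjusted p = 0.0302). The groups were far apart in each, which is no evidence beyond the calls. Lce1b was at 225 and 190 CPM against 0.573 and 1.33 CPM (−7.88 ± 1.55, adjusted p = 0.0455), and Lce6a at 55.5 and 77.2 CPM against 0.763 and 0.530 CPM (−6.66 ± 1.17, adjusted p = 0.0198). Lce1a1, at 379 and 470 CPM against 0.573 and 1.33 CPM, missed the threshold (adjusted p = 0.0516), as did Lce1d and Lce1e. Lce1g, Lce1j and Lce1k were at 0 UMIs in both Grhl3-/- libraries, at least 156-fold, 43.3-fold and 8.47-fold lower.

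Asprv1 was at 1079 and 2064 CPM in WT and 384 and 222 CPM in Grhl3-/- (−2.41 ± 0.30, adjusted p = 0.00499). It was the one member called in each alternative tried at E16.5. Without WT 2 and without Grhl3-/- 2 it was the only one called, without WT 1 there were 3, and leaving out a P0 library gave 17 or 18. Lce1m and Lce6a lost the call without WT 2, without Grhl3-/- 1 and without Grhl3-/- 2, and Lce1b, Lce1c and Lce1l without any one library of this age (Lce1b also without any E14.5 library and Lce1c without either E14.5 WT library). The fold changes stayed large in these fits, at −10.35 to −9.37 for Lce1m, −7.02 to −6.38 for Lce6a, −8.49 to −7.35 for Lce1b, −13.67 to −8.03 for Lce1c and −12.22 to −7.99 for Lce1l. Crct1 was at 601 and 985 CPM in WT and 52.3 and 5.04 CPM in Grhl3-/- and was not called (−4.76 ± 1.11, adjusted p = 0.0652). The inhibitors were not called: Cst6 was at 118 and 160 CPM against 220 and 52.5 CPM, with overlap, and Spink5 at 62.5 and 76.8 CPM against 34.2 and 12.7 CPM (adjusted p = 0.138). Klk7 was at 83.1 and 157 CPM against 37.2 and 3.18 CPM (adjusted p = 0.0987). Granular markers summed to 4434 and 7066 CPM in WT and 868 and 124 CPM in Grhl3-/-, and erythroid markers (5 genes, none at 0) to 6622 and 7730 CPM against 10757 and 16320 CPM, and their part was not tested.

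In suprabasal-like cells at E16.5, 12 of 35 were lower and none was higher (1.93% of all genes were lower and 0.39% higher, 2.32% in all), namely Asprv1, Klk8, Prss8, Lce6a and 8 Lce1 genes, of which Asprv1 alone kept the call with each library left out. Without Grhl3-/- 2 of this age there was 1, without WT 2 there were 2, and without Grhl3-/- 1 of P0 21 were lower and 1 higher. The filter bears on the Lce genes of this count as it does in keratinocyte-like cells. The granular-like cells of Grhl3-/- at E16.5 were 6 and 4, too few to test. In the 6 cells of Grhl3-/- 1, Cst6 was at 6224 CPM, Cdsn at 1660 CPM, Klk7 at 2252 CPM and Spink5 at 1470 CPM, where WT was at 408 and 912, 686 and 1579, 1109 and 2850, and 745 and 1248 CPM. Lce1m was at 11.9 CPM in those 6 cells, 1 UMI, and at 10029 and 23339 CPM in WT. Of the other members, Kprp was also at 1 UMI there (11.9 CPM, against 311 and 668 CPM in WT), Crct1 was at 3189 CPM against 9073 and 18125 CPM, and Asprv1 at 6532 CPM against 12365 and 33423 CPM. Krt14 was at 4232 CPM in the 6 cells and at 851 and 544 CPM in WT. The 4 cells of Grhl3-/- 2 had Cst6 at 30.8 CPM, Cdsn at 61.6 CPM, Klk7 at 216 CPM, Spink5 at 771 CPM and Lce1m at 0 UMIs. The 6 and 4 cells thus differed from each other, and with 84352 and 32446 UMIs these values are a description only.

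At E14.5 none of the 36 was called with edgeR, where 0.38% of all genes were called. At an unadjusted p under 0.05 there were 3 of 36, Klk5, Klk8 and Tgm3, where 1141 of 13171 genes were, about the same share. DESeq2 called 0, also with 3 at an unadjusted p under 0.05. Fitted on the 4 libraries of the age alone, 10 members passed the filter, of which 3 were higher and 3 lower, where 492 of 11403 genes were called. In suprabasal-like cells of E14.5, 0 of 35 were called, where 66 of 11273 genes were. With the 4 libraries alone 4 were higher and 3 lower of 10, where 1292 of 10060 genes were called. The values of Klk8, Klk5 and Tgm3 in keratinocyte-like cells are given as a description. Klk8 was at 44.9 and 49.1 CPM in WT and 65.9 and 66.1 CPM in Grhl3-/-, and Klk5 at 0.694 and 0.590 CPM against 6.02 and 3.57 CPM. In both, the Grhl3-/- libraries were the higher ones. Tgm3 was at 34.5 and 40.4 CPM against 8.32 and 9.88 CPM.

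The effect of genotype was then compared between P0 and E16.5 in the same fit. It was more negative at P0 for 4 of 36 members and more positive for 2, where 8.78% and 11.4% of all genes were, 20.2% in both directions, so that the 6 of 36 were no more than the share over all genes. Klk8 had a difference of −1.73 ± 0.28 (adjusted p = 0.00175), Spink5 of −3.65 ± 0.70 (adjusted p = 0.00476), Tgm1 of −2.63 ± 0.67 (adjusted p = 0.0182) and Cst6 of −3.15 ± 0.85 (adjusted p = 0.0229). Lce3e (9.11 ± 2.73, adjusted p = 0.0433) and Lce3f (fitted 11.47 ± 3.65, adjusted p = 0.0496) went the other way. Since Lce3f was at 0 UMIs in both P0 WT libraries, its fitted value depends on the prior count and is no bound. Against 3 counts for the P0 WT group it was at least 5.49-fold higher in P0 Grhl3-/-. Lce3e was at 14.2 and 2.68 CPM in E16.5 WT, 0.382 and 1.06 CPM in E16.5 Grhl3-/-, 0 and 0.0543 CPM in P0 WT and 0.0479 and 4.79 CPM in P0 Grhl3-/-. Lce3f was at 55.5 and 7.09, 0.191 and 1.06, 0 and 0, and 0 and 1.77 CPM in the same order. Asprv1 had a difference of −0.02 ± 0.40 (adjusted p = 0.99), with similar values of the fold change at both ages. Klk8 and Spink5 were called with each library left out, Tgm1 and Cst6 were not without E16.5 WT 1 or without E16.5 Grhl3-/- 1, and none of the 6 was called under every alternative. The difference of Spink5 turned its sign when the P0 cluster led by Krt6a was added, at resolution 0.5 and over all cells of the libraries, reaching 0.83. Over all cells that of Tgm1 was 0.017 and that of Cst6 −0.02. Lce3e and Lce3f were called in 11 and 8 of 22 alternatives. Both lost the call without Grhl3-/- 2 of P0, which holds nearly all of their P0 counts, and also without E16.5 WT 1, without either E16.5 Grhl3-/- library, without either P0 WT library and without E14.5 WT 2 or E14.5 Grhl3-/- 2, and Lce3f without E14.5 WT 1 or E14.5 Grhl3-/- 1.

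Other genes of cornification, from a list of 59 envelope, corneodesmosome, protease and barrier lipid genes of which 50 were tested, moved in the same comparisons. At P0, 34 were lower in Grhl3-/- keratinocyte-like cells and 3 were higher, where 21.0% and 21.1% of all tested genes were. The largest falls were those of the filaggrin-type genes Flg2 (−8.05), Hrnr (−7.71) and Flg (−5.40). In WT 1 and 2 Flg2 was at 21.1 and 18.6, Hrnr at 153 and 147 and Flg at 1622 and 1446 CPM. The first P0 library, which is WT, was below these, at 1.78, 5.91 and 249 CPM. The 3 that were higher were the small proline-rich genes Sprr2d (5.25), Sprr2a3 (2.90) and Sprr2a1 (2.41). These rested mostly on Grhl3-/- 2, Sprr2d being at 1.58 and 83.5 CPM in Grhl3-/- and at 1.55 and 0.434 CPM in WT, Sprr2a3 at 16.1 and 111 CPM against 13 and 2.44 CPM (14.0 CPM in the first P0 library), and Sprr2a1 at 0.575 and 3.91 CPM against 0.388 and 0.271 CPM. At E16.5, 9 were lower and none higher (0.934% and 0.387% of all genes), led by Aloxe3 (−4.07), a lipoxygenase of barrier lipids. At E14.5 none was called. Of a list of 13 factors that act in differentiation, Grhl1 (−2.44), Zfp750 (−1.98), Ovol1 (−1.71) and Klf4 (−1.68) were among those lower in Grhl3-/- at P0. Over all genes 21.0% were lower, and the named factors are examples, not a count of the list. Gata3, Grhl2 and Prdm1 were not called.

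The layers of P0 WT gave the order of the members' levels. In WT 1, Spink5 was at 4.8 CPM in basal-like, 22.1 CPM in spinous-like and 451 CPM in granular-like cells, and in WT 2 at 2.4, 13.1 and 402 CPM. Klk8 began earlier, at 19.5, 114 and 377 CPM in WT 1 and 17.6, 141 and 343 CPM in WT 2. St14 had no such rise, at 12.3, 8.8 and 13.9 CPM in WT 1. In the first P0 library Crct1 was at 244 CPM in spinous-like and 51.7 CPM in granular-like cells, and Cst6 at 1937 and 1299 CPM, an order that the other P0 WT libraries did not show.

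Cells of each library were also ordered from basal to late along a diffusion pseudotime computed without the 41 genes and read in 10 bins. In both P0 WT libraries 14 members had the 50 UMIs needed. For 10 of them the highest level was in the last bin of both libraries, and for 11 the peak bin was the same. These were 9 and 10 with 500 variable genes. With bins of equal cell number, or with a rank on the first principal component, they were 12 and 13. Peaks lay within 1 bin for 14 members, but for 11 with 500 variable genes. Tgm3 peaked before the others, in bin 7 of both libraries at 154 and 204 CPM. Klk8 and Tgm1 first passed the middle of their range in bin 8 of both, and Cdsn and Crct1 in bin 10 of both. Spink5, Klk5, Klk7 and Asprv1 did so in bin 9 of WT 1 and bin 10 of WT 2, where bin 9 held 7 cells and was not read, so that no member could pass there. In the last bin Asprv1 reached 4844 and 5024 CPM and Spink5 2274 and 2850 CPM. Neighbours 1 bin apart are not separated by these 2 libraries.

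**Figure D5:**
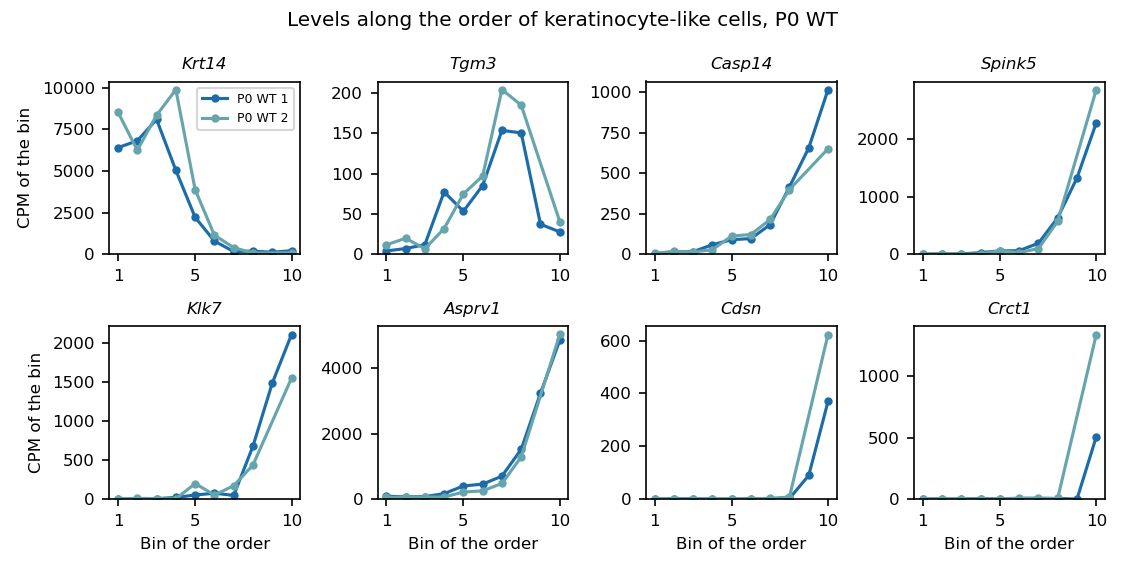
Level (CPM) of Krt14 and 7 members along the 10 bins of pseudotime, from basal to late, in P0 WT 1 and 2. A bin with fewer than 10 cells has no point. Krt14 falls after bin 4, Tgm3 peaks in bin 7 of both libraries, and Asprv1, Spink5 and Cdsn reach their highest level in the last bin.

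In Grhl3-/- libraries ordered in the same way, each on its own cells, the highest level of Asprv1 was 334 and 304 CPM, that of Klk7 39.3 and 165 CPM and that of Tgm3 132 and 314 CPM, the last in bin 10 of both. Bins of different libraries are not matched in stage, so these peaks are given side by side without a comparison.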

How the data were processed

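The authors made UMI counts for each barcode with Cell Ranger on mm10 (version 1.3.1 in the submitters' processing notes) and deposited raw counts without normalization. Cells with 600 to 4800 detected genes (embryonic) or 900 to 7700 (P0) and at most 10% mitochondrial UMIs were kept. Doublets were left in, and an alternative removed the 6% of highest Scrublet score. Each age was integrated and clustered in Seurat 5.3.0 (R 4.3.3; 3000 variable genes without the 41 genes, 30 components, 20 neighbours, resolution 1.0). Clusters were named from marker lists, with score limits of 0.8 (keratinocyte) and 0.5 and at least 3 detected markers. The limits were set after scores had been seen.

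Counts were summed per library and class. All 6 groups of 2 libraries were fitted with edgeR 4.0.16 (quasi-likelihood test, TMM, filterByExpr, Benjamini-Hochberg over all genes tested, threshold 0.05). Granular-like sums were fitted on the P0 libraries alone. Each value after ± is the size of the log2 fold change divided by the square root of the F statistic. It is not a standard error reported by edgeR and is least sure for genes near 0 UMIs in a group. DESeq2 1.42.0 was an alternative. The script was tested on simulated data. An exact permutation test of 2 against 2 libraries cannot give a two-sided p under 0.333. Pseudotime used scanpy 1.11.5 (1000 variable genes, 20 components). Coordinates are GENCODE on GRCm38.

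The 41 genes and all lists were chosen with earlier results of these data known. All members may be named. Values per library are given for those called at P0 or in the difference between ages, though not for each in all 12 libraries. Other listed genes are given by the 3 largest changes in each direction. Replicate numbers did not pair libraries: deviations of same-numbered libraries correlated at −0.00135, −0.0945 and 0.0589. Counts of replicates differed beyond sampling noise.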

Additional observations from a re-analysis of the deposited data

Results flagged for a closer look

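6 members had a genotype effect that differed between P0 and E16.5 in keratinocyte-like cells by the test of the difference itself (edgeR, adjusted over all genes), of 36 tested, where 20.2% of all genes did, so that the count is no more than the share over all genes. On the log2 scale the differences, P0 minus E16.5, were −3.15 for Cst6, −1.73 for Klk8, −3.65 for Spink5, −2.63 for Tgm1, 9.11 for Lce3e and 11.47 for Lce3f. Other settings ended some of these, Spink5 reaching 0.83, Tgm1 0.017 and Cst6 −0.02 over all cells of the libraries. The Lce3e and Lce3f values join a fitted rise at P0 (5.48 and 5.68, from 38 and 14 UMIs in Grhl3-/- 2 against 1 and 0 UMIs in P0 WT) with a fitted fall at E16.5 (−3.63 and −5.79), none of which was called alone, and that of Lce3f depends on the prior count and is no bound. Granular-like cells were 6.20% and 3.70% of keratinocyte-like cells of WT and 1.45% and 1.13% of Grhl3-/- at E16.5. At P0 they were 31.8% and 34.8% in WT 1 and 2 and 4.07% and 18.6% in Grhl3-/-. The first P0 library, which is WT, was at 10.99%. The part of these shares was not tested.

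In the first P0 library, 2 barcodes outside the limits on cells, which no comparison used, held 2576 Lce UMIs. Summed, the 2 barcodes had 8357 UMIs, with Lce1m at 67249 CPM, Crct1 at 64497 CPM, Asprv1 at 8735 CPM, Kprp at 4308 CPM and Cdsn at 1556 CPM. Cst6, Klk5, Spink5 and Tgm1 were at 0 UMIs in them. In only 8357 UMIs, a count of 0 does not show that a gene of low level was absent.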

How the results depend on the processing

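The counts of called members moved with several settings. At P0 24 of 36 were called in keratinocyte-like cells, 12 of the 19 then tested with only the 4 libraries of the age (3708 of 12551 genes were), and 10 to 28 with a library left out (without P0 WT 2 and without P0 Grhl3-/- 1 there were 10). At E16.5 6 were called, 30 with no filter on low counts, 18 at the same number of UMIs, 11 at a mitochondrial limit of 5%, 18 with the 4 libraries, 16 over all cells and 1 to 18 with a library left out. At E14.5 0 were called, 6 with no filter, 6 of 10 tested with the 4 libraries (3 higher, 3 lower, where 492 of 11403 genes were called) and 0 to 1 with a library left out. In suprabasal-like cells at P0 12 were called, 33 with no filter, 22 at resolution 0.5 (Spink5, Asprv1 and Tgm1 not among them) and 7 to 21 with a library left out. In granular-like cells 3 were called, 8 with DESeq2, 1 with RLE, 30 with no filter, 1 at the same number of UMIs and 8 to 17 with a library left out, and resolution 0.5 gave no granular-like cluster at P0. For WT E16.5 against E14.5, leaving out a library gave 12 to 30 of 30, and for WT P0 against E16.5 17 to 30 of 28, with 14 under DESeq2. For the difference between ages 6 were called, 14 with no filter, 0 at resolution 0.5, 3 over all cells, 1 with the Krt6a-led cluster (chosen after seeing the data) and 2 to 10 with a library left out. Over all cells St14 turned to 1.52 between E16.5 and P0, the Tgm1 difference to 0.017 and that of Spink5 to 0.83, and that of Spink5 was 0.19 at resolution 0.5 and 0.10 with the Krt6a-led cluster. The causes were not tested. Of 174 alternatives for counts and summary values 129 stayed within their limits, and of 2365 for single members 2053 were unchanged in call and direction. Depth leaves levels under 0.270 CPM (3 counts over both E14.5 WT libraries) unread at E14.5, and at the same number of UMIs 28 of 32 members still rose from E14.5 to E16.5.

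The replicate number is only a number here. With it as a block 29 members were called at P0 (26 lower, 3 higher), 19 at E16.5, 24 in suprabasal-like cells at P0 and 10 in granular-like cells. Of all genes tested in keratinocyte-like cells, 174 were called at E16.5 and 829 with no filter, and at E14.5 50, against 125 with DESeq2, 405 with no filter and 18 with the block.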

Other observations

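Some members were counted outside the keratinocyte-like cells. Klk8 was at 185 and 256 CPM in the T cell-like cells of P0 WT 1 and 2 (63 and 95 cells, 84 and 215 UMIs), at 210 and 213 CPM in those of Grhl3-/- 1 and 2, and at 470 CPM in the 62 such cells of the first P0 library. In Langerhans cell- or macrophage-like cells of the same libraries Klk8 was at 6.93 to 22.7 CPM. In mast cell-like cells of E14.5, Klk8 was at 176 and 187 CPM in WT and 190 and 193 CPM in Grhl3-/-, above the 44.9 and 49.1 CPM of E14.5 WT keratinocyte-like cells.

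Padi3, which did not pass the filter in keratinocyte-like cells, was at 31.5 and 36.5 CPM in mast cell-like cells of E14.5 WT, 22.2 and 32.2 CPM in those of E14.5 Grhl3-/-, 23.6 and 31.2 CPM in those of E16.5 WT and 27.1 and 18.6 CPM in those of E16.5 Grhl3-/-. The next highest Padi3 level of any class with at least 10 UMIs was 5.26 CPM.

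In upper hair follicle-like cells of P0 WT 1 and 2, Klk7 was at 313 and 474 CPM and Asprv1 at 381 and 535 CPM, and Tgm5 at 42.7 and 61.7 CPM. In Grhl3-/- Klk7 was at 98.4 and 57.1 CPM in that class. In the Krt6a-led P0 cluster, Asprv1 was at 784 and 527 CPM in WT (63 and 40 cells) and at 616 and 998 CPM in Grhl3-/- (155 and 173 cells), so the order seen in keratinocyte-like cells was not seen there. Klk6 was at 58.4 CPM in the sebaceous-like cells of the first P0 library, where 4 of 121 cells held its 89 UMIs, and at 43.0 CPM in those of WT 2, in 8 of 81 cells.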
